A study of Mus musculus with 6 samples.

Results

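The glutathione peroxidases are a family of 8 genes in the mouse, Gpx1 to Gpx8, and all 8 were found by symbol among the 34745 genes of the deposited table, on 6 chromosomes. RNA was sequenced from the prostates of 6 young male C57BL/6 mice, 3 in each of 2 groups. Mice of the T + E2 group carried 1 slow-release pellet of testosterone and oestradiol under the skin for 12 weeks, and the methods state that it was renewed monthly. Mice of the CON group had the skin incision and its closure with no pellet. The mice were intact wild-type animals, the controls carried no hormone-free pellet, and both hormones came in the same pellet, so their separate contributions cannot be told apart. The prostate lobes that were taken are not given in the sources used here. Such treatment serves to model benign enlargement of the prostate with an obstructed bladder outlet, and the comparison asks which transcripts differ in such a prostate.

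Glutathione peroxidases reduce hydrogen peroxide and organic peroxides to water and alcohols, and most of them draw the electrons from glutathione. The oxidised glutathione is returned to its reduced form by glutathione reductase at the expense of NADPH. Gpx1 is the abundant enzyme of the cytosol, Gpx2 is best known from the gut lining, Gpx3 is secreted and is the form found in plasma, and Gpx4 reduces peroxides of lipids within membranes. Gpx5 is known from the epididymis and Gpx6 from the olfactory epithelium, while Gpx7 and Gpx8 reside in the endoplasmic reticulum, where secreted proteins are folded. In some members the reactive residue is selenocysteine, an amino acid with selenium that is written into the protein at a UGA codon otherwise read as stop, and in others it is cysteine.

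The codon of the reactive residue shows this division of the family, and the 30 bases around it are given here for each member. They were read 5′ to 3′ on the coding strand of GENCODE M21 transcripts on build GRCm38, and the capitals mark the codon, which is TGA in the 4 genes annotated with selenocysteine and a cysteine codon in the other 4.
Gpx1: gtcgcgtctctcTGAggcaccacgatccgg
Gpx2: gtggcgtcactcTGAggaacaactacccgg
Gpx3: gtagccagctacTGAggtctgacagaccaa
Gpx4: gtggcctcgcaaTGAggcaaaactgacgta
Gpx5: gtggctacctatTGCggtctgacaatccag
Gpx6: gtggcatccttcTGTggcctgacagctacg
Gpx7: gtagctagcgaaTGTggcttcacagaccag
Gpx8: gtggctagtgacTGCcgcttcacagacaag
The codon is number 47 in Gpx1, 40 in Gpx2, 73 in Gpx3, Gpx4, Gpx5 and Gpx6, 56 in Gpx7 and 79 in Gpx8. It lies in exon 1 of 2 in Gpx1 and Gpx2, in exon 3 of 7 in Gpx4 and in exon 2 of the remaining members. Of the 28 pairs of members, Gpx1 with Gpx2 and Gpx7 with Gpx8 had the most alike windows, with 24 of 30 bases identical in each pair. The window of the selenocysteine gene Gpx3 shared 22 bases each with Gpx5 and Gpx7, which have cysteine, and 14 with Gpx1.

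Reads counted on genes totalled 14816146 to 16555549 per mouse. A count of 3 was taken as the limit that a count of 0 allows and was worth 0.181 to 0.2025 CPM (counts scaled to library size), which covers counting error only. Levels are TMM-normalized CPM with the mean and SD of 3 mice, and log2 fold changes are positive where the T + E2 group was higher. CON replicate 2 and T + E2 replicate 2 stood apart from the other mice of their groups by marker transcripts of the seminal vesicle, an organ next to the prostate. The summed level of 8 seminal vesicle markers was 10325 CPM in the former and 643 CPM in the latter, against 0.629 to 4.11 CPM in the other 4 mice. In T + E2 replicate 2 most of this was Svs2, at 484 CPM. Svs1, Svs3a, Svs3b and Svs6 had 3 to 5 counts there, whereas in CON replicate 2 they had 47 to 583. Svs4 and Svs5 had 69802 and 76732 counts in CON replicate 2 but 109 and 1799 in T + E2 replicate 2. The marker make-up of these libraries thus differed. Both are called libraries with seminal vesicle RNA below by their marker sum, and the origin of this RNA was not tested. Prostate epithelial markers were present in every mouse, although Pbsn (probasin) fell by 3.29 and Tgm4 (transglutaminase of the prostate) fell by 2.91 on the log2 scale in the T + E2 group. In whole tissue, fewer cells of a type and less RNA per cell cannot be told apart.

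The most abundant member in both groups was Gpx3, and it was higher in every T + E2 mouse than in any CON mouse. Gpx1 was lower in every T + E2 mouse, and Gpx8 was higher. Gpx2, Gpx4 and Gpx7 had overlapping groups, and Gpx5 and Gpx6 had no counts in any mouse. Of the 6 members with enough counts to be tested, 3 passed an adjusted p of 0.05 in the quasi-likelihood test of edgeR, adjusted after Benjamini and Hochberg over all tested genes, where 19.6% of all 15580 tested genes did. Higher expression was called for 2 members (10.4% of all tested genes) and lower expression for 1 (9.25%). With the further condition of an absolute log2 fold change over 1, 2 members were DEGs (7.64% of all tested genes), Gpx3 as an upregulated DEG (4.27%) and Gpx1 as a downregulated DEG (3.38%). The groups did not overlap for 3 of the 6 tested members, a share set beside 40.7% of all tested genes. The 6 tested members are those that had enough counts, and they do not stand for the whole family.

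**Figure D1:**
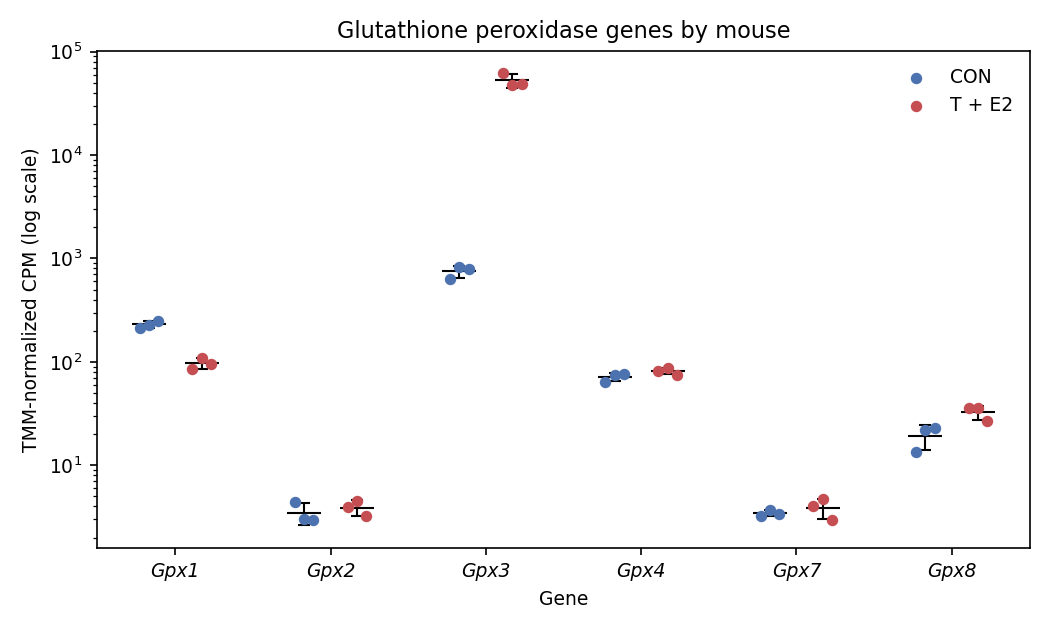
TMM-normalized CPM on a log axis for the 6 tested members, with 1 point per mouse, CON in blue and T + E2 in red, and a bar for the mean with the SD of 3 mice. Gpx3 moved from 631 to 818 CPM in CON mice to 48062 to 61624 CPM in T + E2 mice, Gpx1 lay lower in all 3 T + E2 mice, and the groups of Gpx2, Gpx4 and Gpx7 overlapped.

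Gpx3 (ENSMUSG00000018339) lies on chromosome 11 of GRCm38, at 54902453 to 54910377 on the plus strand, and encodes the secreted glutathione peroxidase. It received 9529, 12448 and 12714 counts in the CON mice against 890828, 789360 and 721241 counts in the T + E2 mice. The lowest T + E2 mouse thus lay far above the highest CON mouse. As normalized levels these were 631, 818 and 799 CPM in the CON mice against 61624, 48062 and 48131 CPM in the T + E2 mice. The means were 749 ± 103 CPM in the CON group and 52606 ± 7810 CPM in the T + E2 group, a ratio of 70.2 with n = 3 in each group. The log2 fold change was 6.13 (standard error, SE, 0.18, 95% interval 5.72 to 6.54, adjusted p = 2.29e-06 by edgeR's quasi-likelihood test). Among the 15580 tested genes this was rank 29 by log2 fold change and rank 4 by the test statistic. By the gain in CPM, 51857, it was rank 1. No transcript of another gene matched that of Gpx3 over 100 bases or more with an identity of at least 90%, and no annotated gene overlapped it.

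The share of all counts shows how far this transcript came to occupy the libraries. Gpx3 took 0.0643% of the counts in CON replicate 1 (95% Clopper-Pearson interval 0.063 to 0.0656%), 0.0838% in replicate 2 and 0.0793% in replicate 3. In the T + E2 group it took 5.89% in replicate 1 (95% Clopper-Pearson interval 5.87 to 5.90%), 4.77% in replicate 2 and 4.87% in replicate 3. Reads are not independent molecules without molecular identifiers, and these intervals cover counting error only. The spread between mice was wider than the intervals, with means of 0.0758 ± 0.0102% and 5.17 ± 0.619%. By count, Gpx3 ranked 116, 86 and 90 among all genes in the CON mice against 1 in each T + E2 mouse. The next gene in the T + E2 mice was 9530053A07Rik at 1.92% in replicate 1 and mt-Co1 of the mitochondrial genome at 1.90% and 1.53% in replicates 2 and 3. In the CON mice the largest gene was 9530053A07Rik, with 8.22 to 11.5% of the counts.

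The share of the whole family followed that of Gpx3. All 8 members together took 0.0946 to 0.118% of the counts in CON mice and 4.79 to 5.91% in T + E2 mice, a difference of 5.09 percentage points between the group means. Without Gpx3 the family took 0.0303 to 0.0355% in CON mice and 0.0203 to 0.0239% in T + E2 mice. The remaining members together were thus lower in every T + E2 mouse, and of these members Gpx1 was the one called lower. Gpx3 made up 68.0 to 71.2% of the family's counts in CON mice and 99.5 to 99.7% in T + E2 mice. When counts were divided by transcript length these ranges were 58.2 to 61.8% and 99.2 to 99.5%.

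Gpx3 also changed the make-up of the selenoprotein transcripts, the 24 genes whose proteins hold selenocysteine. These genes took 0.247 to 0.276% of all counts in CON mice and 4.96 to 6.05% in T + E2 mice. Gpx3 accounted for 26.0, 30.3 and 29.2% of selenoprotein counts in the CON mice against for 97.3, 96.2 and 96.7% in the T + E2 mice. Gpx1 accounted for 8.46 to 9.19% and 0.135 to 0.217%, and Gpx4 for 2.62 to 2.82% and 0.130 to 0.175%. The 20 selenoprotein genes outside the family took similar shares of all counts in both groups, 0.154 to 0.161% in CON mice and 0.146 to 0.169% in T + E2 mice. The shift within this group of transcripts was that of Gpx3. These are shares of transcript counts, and protein was not measured here.

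**Figure D2:**
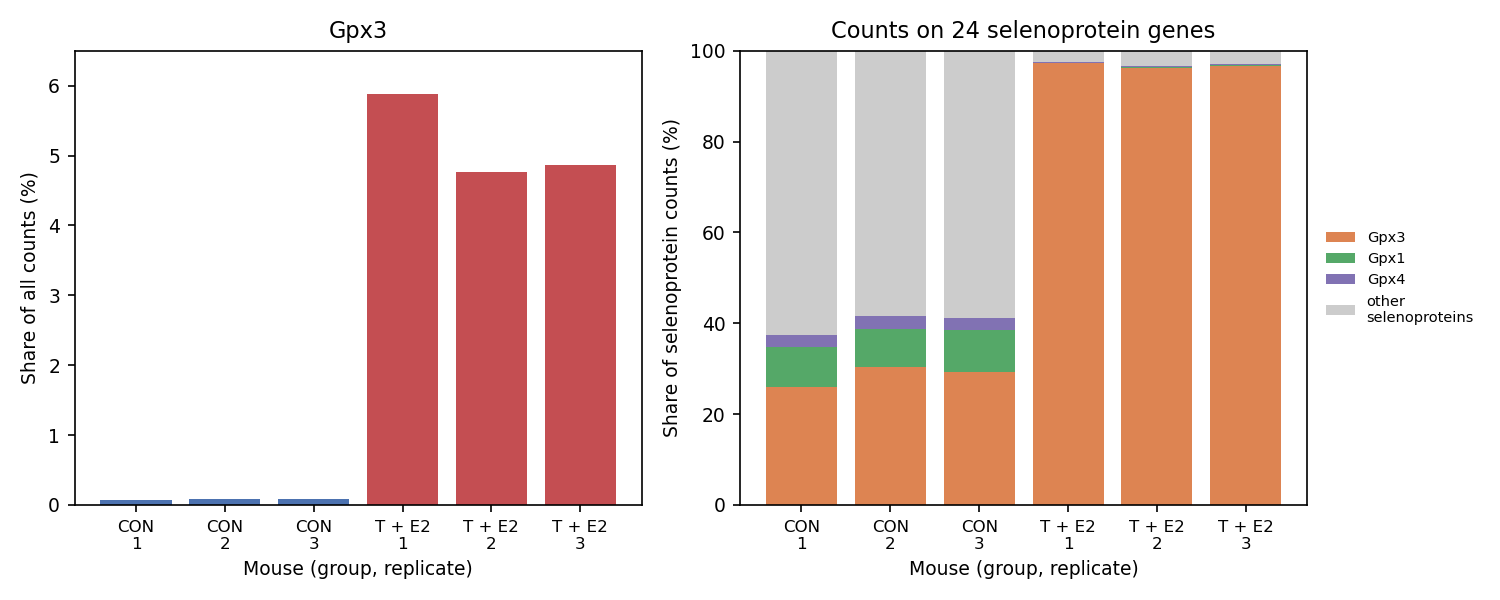
On the left, the share of all counts on Gpx3 in percent for each mouse, and on the right, the share of the counts on 24 selenoprotein genes that fell on Gpx3, Gpx1, Gpx4 and all others. The bars of Gpx3 rise from at most 0.0838% in CON mice to at least 4.77% in T + E2 mice on the left, and from at most 30.3% to at least 96.2% on the right.

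Gpx1 (ENSMUSG00000063856), the cytosolic enzyme, lies on chromosome 9 at 108338903 to 108340343 on the plus strand. It had 3215, 3471 and 3995 counts in the CON mice against 1240, 1780 and 1437 in the T + E2 mice. The normalized levels were 213, 228 and 251 CPM against 85.8, 108 and 95.9 CPM, so the highest T + E2 mouse lay below the lowest CON mouse. The mean fell from 231 ± 19.3 to 96.7 ± 11.3 CPM, a ratio of 0.419. Its log2 fold change was -1.25 (SE 0.11, 95% interval -1.52 to -0.99, adjusted p = 0.000298 by edgeR's quasi-likelihood test). By this fold change Gpx1 was rank 446 from the bottom of all tested genes, and by the loss in CPM rank 64. Its share of all counts went from 0.0217 to 0.0249% in CON mice to 0.00819 to 0.0108% in T + E2 mice. The count of Gpx3 divided by the count of Gpx1 in the same mouse was 2.96, 3.59 and 3.18 in the CON group and 718, 443 and 502 in the T + E2 group. This ratio within a library does not depend on the scaling between libraries.

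Gpx2 (ENSMUSG00000042808), the peroxidase of gut lining, lies on chromosome 12 at 76792335 to 76795554 on the minus strand, within Fntb, which is on the opposite strand and shares no exon base with it. It had 67, 46 and 47 counts in the CON mice against 57, 75 and 48 in the T + E2 mice. The groups overlapped at this low level, with means of 3.47 ± 0.837 and 3.9 ± 0.682 CPM. The log2 fold change was 0.17 (95% interval -0.40 to 0.75, adjusted p = 0.666 by edgeR). A processed copy, Gpx2-ps1, is 98.1% identical over 572 bases and had 0 to 9 counts per mouse, and reads could have been split between them.

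Gpx4 (ENSMUSG00000075706), which reduces lipid peroxides, lies on chromosome 10 at 80047166 to 80056439 on the plus strand. Its levels were 63.7, 74.6 and 77.0 CPM in the CON mice against 82.5, 87.4 and 75.3 CPM in the T + E2 mice. The lowest T + E2 mouse lay below the highest CON mouse. The log2 fold change was 0.19 (95% interval -0.06 to 0.44, adjusted p = 0.253 by edgeR). The interval does not reach the size of the change in Gpx1 or Gpx3. Gpx4-ps2 is 99.7% identical to Gpx4 over 762 bases and AC122253.3 is 95.1% identical over 535 bases. These copies are not analysed here, and the counts of Gpx4 are uncertain to the extent that reads were shared with them.

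Gpx5 (ENSMUSG00000004344, chromosome 13, 21286429 to 21292731, minus strand) and Gpx6 (ENSMUSG00000004341, chromosome 13, 21312217 to 21319624, plus strand) are neighbours in the genome. Both had 0 counts in all 6 mice, which allows up to 3 counts in a library, or 0.181 to 0.2025 CPM. Gpx5 is a marker of the epididymis, and its absence was set beside 16 other epididymal genes. Of these, 9 had no counts in any mouse, among them Crisp4, Lcn5, Lcn8, Lcn9 and Cst8. Only Adam7 had enough counts to be tested, and it reached them through the T + E2 group alone, with 158, 81 and 139 counts against 0 in each CON mouse, so its call could only be higher. The summed level of the 16 genes was 0.126 to 1.05 CPM in the CON group and 5.60 to 11.1 CPM in the T + E2 group, most of it Adam7. Gpx3 is also known to be expressed in the epididymis. Besides Adam7, which rose with Gpx3, no gene of this list had more than 13 counts in any mouse. The list does not hold every gene of this tract. Eppin, a protease inhibitor of the reproductive tract outside the list, had 0, 2 and 5 counts in the CON mice. In the T + E2 mice Eppin had 258, 318 and 189 counts, and like Adam7 it could only be called higher. The part of epididymal RNA in the rise of Gpx3 was not tested.

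Gpx7 and Gpx8, the members of the endoplasmic reticulum, differed in level and in change. Gpx7 (ENSMUSG00000028597) lies on chromosome 4 at 108400390 to 108406961 on the minus strand and had 49, 56 and 54 counts in the CON mice against 58, 77 and 44 in the T + E2 mice. Both the lowest and the highest mouse belonged to the T + E2 group. Its log2 fold change was 0.17 (95% interval -0.36 to 0.71, adjusted p = 0.634 by edgeR). Gpx8 (ENSMUSG00000021760) lies on chromosome 13 at 113042763 to 113046388 on the minus strand, within Cdc20b on the opposite strand and with no shared exon base. Its levels were 13.3, 21.8 and 22.9 CPM in the CON mice against 35.8, 35.4 and 26.6 CPM in the T + E2 mice. Every T + E2 mouse lay above every CON mouse, but the gap between the nearest mice was smaller than the spread within the CON group. The mean rose from 19.3 ± 5.23 to 32.6 ± 5.18 CPM, with a log2 fold change of 0.75 (SE 0.21, 95% interval 0.27 to 1.24, adjusted p = 0.0414 by edgeR). This call lay close to the threshold and was lost in 5 of 6 fits that left out a mouse. The adjusted p by edgeR was 0.0544 without CON replicate 1, 0.0611 without CON replicate 2, 0.0528 without CON replicate 3, 0.107 without T + E2 replicate 1 and 0.124 without T + E2 replicate 2. Without both libraries with seminal vesicle RNA it was 0.156, and under limma on FPKM values it was 0.0575 with a pseudocount of 0.1 and 0.0548 with 1, whereas DESeq2 gave 0.00459. The log2 fold change stayed between 0.55 and 0.89 over these settings. Gpx3 and Gpx1 passed under every alternative tried, including the fit without both libraries with seminal vesicle RNA, where their log2 fold changes were 6.26 and -1.35 (adjusted p = 0.000338 and 0.00412 by edgeR).

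**Figure D3:**
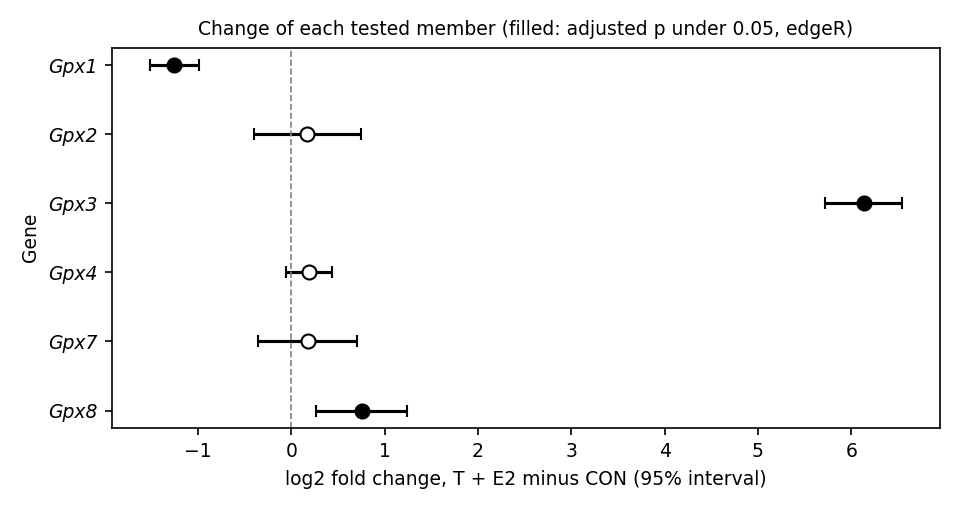
Log2 fold change (T + E2 minus CON) of each tested member with its 95% interval from edgeR, filled where the adjusted p was under 0.05. Gpx3 at 6.13 and Gpx1 at -1.25 lie clear of 0, Gpx8 at 0.75 has a lower bound of 0.27, and the intervals of Gpx2, Gpx4 and Gpx7 cover 0.

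To compare levels between members, counts were divided by the length of the principal transcript, giving CPM per kilobase. In the CON group the order was Gpx3 at 476 ± 64.2, Gpx1 at 218 ± 15.1, Gpx4 at 75.7 ± 6.92, Gpx8 at 18.7 ± 4.96, Gpx2 at 3.30 ± 0.818 and Gpx7 at 2.70 ± 0.196 CPM per kilobase. Each neighbour in this order was separated from the next in every mouse, except that Gpx2 and Gpx7 overlapped. In the T + E2 group Gpx3 stood at 32459 ± 3881 CPM per kilobase, 364 times the level of Gpx1. Gpx1 at 89.1 ± 12.0 and Gpx4 at 84.0 ± 5.68 CPM per kilobase then overlapped, as did Gpx2 at 3.60 ± 0.608 and Gpx7 at 2.96 ± 0.652, with Gpx8 at 30.8 ± 4.31 between these pairs. The cytosolic enzyme was thus 2.88 times the level of Gpx4 in the CON group and was not separated from it in the T + E2 group.

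The deposited FPKM values give the same order of means in the CON group but another in the T + E2 group, because of the gene length they use. The length implied by counts and FPKM was 3412 bases for Gpx1, equal to the sum over its 4 annotated transcripts and 3.18 times its principal transcript of 1072 bases. For Gpx4 it was 2.92 times and for Gpx3 1.49 times the principal transcript, whereas for Gpx8 it was 0.98 times. In FPKM the T + E2 group therefore placed Gpx8 at 31.6 ± 4.42, Gpx4 at 28.7 ± 1.94 and Gpx1 at 28.0 ± 3.77, with overlap between neighbours. Of the tested members, Gpx3 was the highest and Gpx7 the lowest by mean on both scales. Fold changes of a member between groups do not depend on this length, since it was the same in all libraries.

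**Figure D4:**
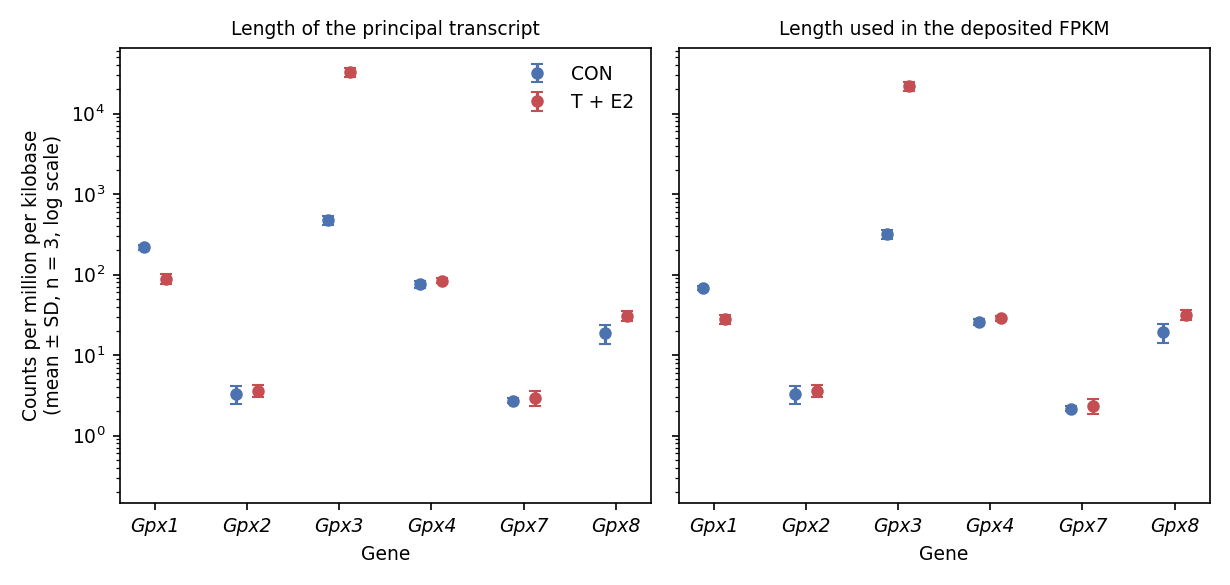
Level of each tested member per kilobase on a log axis, as the mean and SD of 3 mice in each group, with the length of the principal transcript on the left and the length used in the deposited FPKM on the right. Gpx1 in the T + E2 group lies at 89.1 with the first length and at 28.0 with the second, beside 30.8 and 31.6 for Gpx8.

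Promoters of the members were searched for letters of hormone and oxidant response motifs on both strands, in the RefSeq windows of 250 bases before to 50 after each annotated start on GRCm38.p6. The letters AGAACA, bound by the androgen receptor and related receptors as part of a longer element, occurred in the window of Gpx3 and in that of Gpx6. They occurred in none of the windows of the other members, and in 19% of all 32851 promoters. The palindrome of the full androgen response element, which contains AGAACA, was in no member's window and in 0.009% of all promoters. The palindrome of the oestrogen response element was in none of theirs and in 0.07% of all, and the core of the antioxidant response element, TGACNNNGC, was in none of theirs and in 12.4% of all. A match of letters is a description of the window only.

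The tested genes whose profiles over the 6 mice lay nearest to that of Gpx3, by the root mean square difference of centred log2 CPM, were Adam7 (0.317), Ugt2b35 (0.386) and Eppin (0.455). Adam7 and Eppin had at most 5 counts in any CON mouse and passed the filter on low counts only through the T + E2 group, so their log2 CPM in the CON group, and with it their likeness to Gpx3, is largely set by the prior count of 2. Ugt2b35, with 6, 13 and 11 counts in the CON mice, also needed the T + E2 group to pass this filter. Its call could thus only be higher, and its likeness to Gpx3 is bound to that filter. Adam7 had no counts in the CON mice but 158, 81 and 139 in the T + E2 mice, at least 41.8-fold higher against 3 counts per library. Ugt2b35, which encodes a glucuronosyltransferase, rose from 0.648 ± 0.232 to 43.1 ± 13.3 CPM, and Eppin, a protease inhibitor of the reproductive tract, from 0.149 ± 0.158 to 16.6 ± 3.54 CPM. The level of Gpx3 in the CON group set it apart from these 3 genes, which had at most 13 counts in any CON mouse against at least 9529. Nearest to Gpx1 were Wee1 (0.091), Slc6a2 (0.0925) and Fscn1 (0.11), with log2 fold changes of -1.24, -1.21 and -1.24. These likenesses rest on 6 samples and mostly on the difference between the groups.

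The genes around the family were described with 9 lists of 98 genes, written from known roles but with earlier results of these data known. The share passing thus describes these lists and is no test of them. Of the 92 that could be tested, 37 (40.2%) passed an adjusted p of 0.05 by edgeR, 26 of them higher and 11 lower, beside 19.6% of all tested genes, 10.4% higher and 9.25% lower. The median log2 fold change of the 92 was 0.18 against -0.002 for all tested genes. Of the 37, 16 passed under all 14 alternatives as well, 12 of them higher and 4 lower. Without both libraries with seminal vesicle RNA 20 passed, and 24 passed without CON replicate 3 or without T + E2 replicate 1. The genes named next are those with an absolute log2 fold change over 1 or the most abundant of a list, and those added to name all members of a small count were chosen after their values were seen.

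Glutathione itself is made from cysteine in 2 steps, and cysteine enters cells as cystine through the carrier Slc7a11 with its partner Slc3a2. In this list of 5 genes, 1 was higher and 2 were lower, beside 10.4% and 9.25% of all tested genes. Slc7a11 rose from 4.88 ± 1.57 to 19.3 ± 2.32 CPM, with a log2 fold change of 1.98 (SE 0.22, adjusted p = 0.000841 by edgeR). Its partner Slc3a2, which also serves other carriers, fell from 215 ± 20.9 to 149 ± 14.4 CPM (log2 fold change -0.52, adjusted p = 0.0145 by edgeR, 0.0561 without CON replicate 3). Gss, the enzyme of the last step of synthesis, fell by 0.77 on the log2 scale. Gclc, the rate-limiting enzyme, had 57.6 ± 7.60 and 70.5 ± 1.87 CPM and did not pass (adjusted p = 0.105 by edgeR).

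The enzyme that returns oxidised glutathione to the reduced form, Gsr, rose from 36.4 ± 4.04 to 204 ± 11.8 CPM, with a log2 fold change of 2.49 (SE 0.11, adjusted p = 1.37e-05 by edgeR). All 3 T + E2 mice, with 2997 to 3195 counts, lay far above the 508 to 601 counts of the CON mice. In the list of glutathione and NADPH recycling, 4 of 11 tested genes were higher and 1 was lower. Of all tested genes, 10.4% were called higher and 9.25% lower. The median log2 fold change of the list was 0.24. G6pdx, which supplies NADPH from glucose, rose from 88.3 ± 2.02 to 169 ± 17.6 CPM, and Me1, another source of NADPH, rose by 0.67 on the log2 scale. Txnrd1 (thioredoxin reductase) was higher and Glrx (glutaredoxin) lower, but these did not pass in 4 and 9 of 14 alternatives. Glrx3 had 69.0 ± 4.58 and 86.2 ± 10.4 CPM (adjusted p = 0.0861 by edgeR). Of the genes that break glutathione down, 5 of 11 were higher and 1 was lower, with a median of 0.65. Anpep, an aminopeptidase of the cell surface, rose from 145 ± 9.37 to 504 ± 38.3 CPM, and Dpep1, a dipeptidase, rose by 0.83. Ggt6 (log2 fold change 1.79), Dpep2 (1.54) and Ggt5 (0.73) were higher at levels of at most 5.90 CPM and did not pass in 5, 6 and 8 of 14 alternatives. Ggt6 had 6 to 8 counts and Dpep2 9 to 15 counts in the CON mice. Both passed the filter on low counts only through the T + E2 group, so their calls could only be higher, and both are among the 5. Chac1, which degrades glutathione inside the cell, fell from 25.5 ± 21.1 to 4.17 ± 0.66 CPM (log2 fold change -2.61, adjusted p = 0.0134 by edgeR, 0.0623 without T + E2 replicate 2), with a wide spread in the CON group. Without CON replicate 1 its log2 fold change was -1.67.

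Of the genes that bring selenium to the cell and place selenocysteine in proteins, 2 of 13 tested were higher and 1 was lower, which is near the 19.6% of all tested genes and is no result about the list. The median log2 fold change was 0.01. Sepp1 (selenoprotein P, the selenium carrier of plasma) had 225 ± 31.1 and 334 ± 62.1 CPM (log2 fold change 0.57, adjusted p = 0.0389 by edgeR), Sephs2, which makes the selenium donor, had a log2 fold change of 0.43, and Sars, the seryl-tRNA synthetase, of -0.36. Each of these calls was lost in 8 of 14 alternatives, and without both libraries with seminal vesicle RNA no gene of the list passed. Of the 18 tested selenoproteins outside the family, 5 were higher and 4 were lower, beside 10.4% and 9.25% of all tested genes. Their median log2 fold change was -0.05. Sepw1 (selenoprotein W) fell from 125 ± 13.7 to 45.9 ± 7.03 CPM (log2 fold change -1.44, SE 0.14, adjusted p = 0.000418 by edgeR), and 2700094K13Rik (selenoprotein H) fell from 16.3 ± 2.69 to 5.30 ± 0.713 CPM. Dio2, which activates thyroid hormone, had 2.76 ± 0.671 CPM in CON mice and rose to 13.6 ± 3.61 CPM. Dio3 (log2 fold change 1.10) did not pass in 5 of 14 alternatives, nor did Selo (-0.48) in 6 and Sepn1 (-0.33) in 10. The selenoprotein genes thus moved in both directions, and the log2 fold change of Gpx3, 6.13, was the largest of the selenoproteins tested.

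Other enzymes that act on hydrogen peroxide did not move as Gpx3 did. Prdx6, a peroxiredoxin that can also reduce lipid peroxides with glutathione, fell from 2609 ± 464 to 649 ± 92.8 CPM, with a log2 fold change of -2.01 (SE 0.17, adjusted p = 0.000188 by edgeR). Its CON mice had 33367 to 49455 counts and its T + E2 mice 8899 to 10582. In CON mice Prdx6 thus had more counts than Gpx3, and in T + E2 mice fewer. Of the 10 genes in this list 3 passed, not far above the 19.6% of all tested genes, so this count is no result about the list. Besides Prdx6, these were Prdx1 (log2 fold change 0.72) and Prdx4 (0.92), both higher. Prdx1 did not pass without both libraries with seminal vesicle RNA (adjusted p = 0.0653 by edgeR). Sod1, which makes hydrogen peroxide from superoxide, had 256 ± 19.0 and 282 ± 18.3 CPM (adjusted p = 0.348 by edgeR). In the list on lipid peroxidation and ferroptosis, the setting in which Gpx4 is best known, 0 of 11 tested genes passed by edgeR. At an unadjusted p under 0.05 there were 4, and DESeq2 called 2. The most abundant were the ferritin chains Fth1, at 1056 ± 107 and 962 ± 84.4 CPM, and Ftl1, at 547 ± 51.8 and 566 ± 109 CPM.

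Oxidative folding in the endoplasmic reticulum is the process in which Gpx7 and Gpx8 use hydrogen peroxide. Its list had 8 of 11 genes higher and 0 lower, beside 10.4% and 9.25% of all tested genes. The median log2 fold change was 0.86. Qsox1, which forms disulfide bonds in secreted proteins, rose from 129 ± 45.7 to 1524 ± 67.8 CPM (log2 fold change 3.56, SE 0.24, adjusted p = 6.78e-05 by edgeR). Ero1l, whose reaction gives off hydrogen peroxide, rose from 23.2 ± 3.4 to 70.1 ± 11.3 CPM, and the disulfide isomerase Pdia4 from 515 ± 149 to 1406 ± 172 CPM. The other genes called higher were Prdx4, Pdia3, Pdia5, Pdia6 and the chaperone Hspa5, and over the alternatives 5 to 9 genes of the list passed. The genes under control of Nrf2, the factor that answers oxidant stress, had 7 of 13 higher and 1 lower, with a median of 0.41. Gsta4, a glutathione transferase for products of lipid peroxidation, rose from 19.0 ± 6.14 to 58.4 ± 15 CPM (log2 fold change 1.62, adjusted p = 0.00369 by edgeR). Slc7a11, Me1, G6pdx and Txnrd1 are in this list too, and Gstm1 (log2 fold change -0.51) was the gene called lower, a call lost in 7 of 14 alternatives. Hmox1 (log2 fold change 0.63, adjusted p = 0.0274 by edgeR) and Srxn1 (0.45, adjusted p = 0.0224 by edgeR) were also called higher. Each of these calls was lost in 6 of 14 alternatives. Nqo1, often read as a marker of Nrf2 activity, had 3.09 ± 0.292 and 3.53 ± 1.37 CPM (adjusted p = 0.693 by edgeR) and was named after its value was seen.

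**Figure D5:**
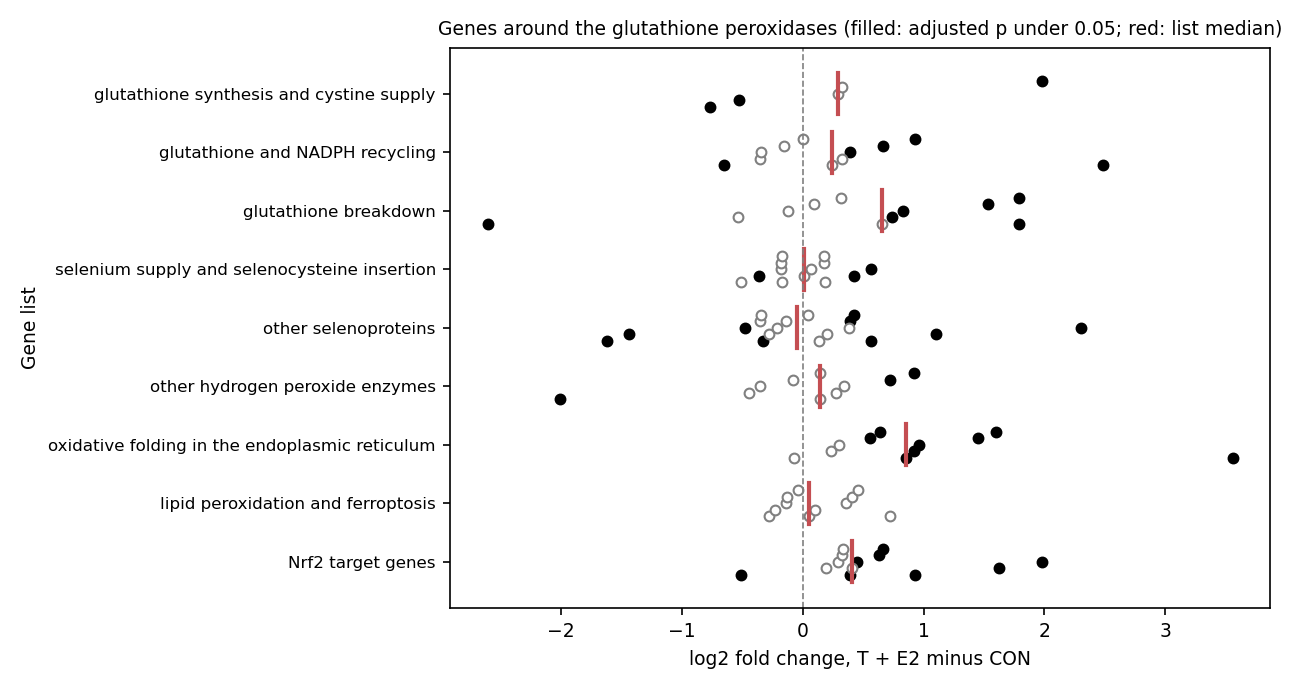
Log2 fold change (T + E2 minus CON) of the tested genes of each of 9 lists, with 1 point per gene, filled where the adjusted p was under 0.05 by edgeR, and a red line at the list median. The medians run from -0.05 for other selenoproteins to 0.86 for oxidative folding, and Qsox1 at 3.56 and Chac1 at -2.61 are the outermost points.

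Markers of other cell types were set beside the changes of Gpx3 and Gpx1, and their counts are read against the 19.6% of all tested genes that passed. Red cell genes were higher for 5 of 5 markers, with summed levels of 53.9 to 66.2 CPM in CON mice and 133 to 420 CPM in T + E2 mice. Urothelial genes were higher for 3 of 4 tested markers (423 to 643 and 1374 to 1702 CPM), and macrophage genes for 3 of 6 (155 to 210 and 235 to 351 CPM). Prostate epithelial markers were higher for 3 and lower for 3 of 9, with summed levels of 40520 to 53873 CPM in CON mice and 18263 to 20158 CPM in T + E2 mice. The shares called lay near that background for smooth muscle and stroma, with 2 of 8 lower (4682 to 5358 and 4201 to 4583 CPM), for B and plasma cell genes, with 1 of 4 higher (23.3 to 100 and 77.1 to 153 CPM), and for basal epithelial genes, with 1 of 4 higher (155 to 257 and 245 to 313 CPM). Of the genes called higher, the urothelial Upk2 had 10 to 14 counts and Cd79b of the B cell list 7 to 16 counts in the CON mice. Both needed the T + E2 group to pass the filter on low counts, so their calls could only be higher. Summed levels of fat (84.5 to 534 and 44.4 to 142 CPM) and of skeletal muscle (74.4 to 324 and 91.6 to 266 CPM) overlapped between the groups. The part of these differences in the results for Gpx3, Gpx1 and Gpx8 was not tested. In every T + E2 mouse Gpx3 alone, at 48062 CPM or more, exceeded the summed level of the markers of each of these cell types. A sum over chosen markers is not the RNA of a cell type, so this is a comparison of levels only and tests no cause.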

How the data were processed

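The authors deposited 1 table with whole-number counts per gene, without normalization, and FPKM values for each of 6 mice. The submitters' processing notes name TopHat, Bowtie2 and HTSeq. The annotation release and the strand setting are not given in the sources used here, and the deposited coordinates lie on GRCm38, with 27686 of 34745 genes at the same start and end as in GENCODE M21. The deposited FPKM values divide these counts by a gene length that exceeded the union of exons in 82.5% of 11620 genes compared, so levels between members were also computed per length of the principal transcript. Every column of values belonged to 1 of the 6 mice. Totals were 14816146 to 16555549 counts per mouse. The labels number the tissue samples and the methods assign 3 separate mice to each group, and no pair of mice of the same group agreed within sampling noise (chi-square per degree of freedom 16.7 to 36.4).

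Counts were analysed with edgeR 4.0.16 in R 4.3.3, with filterByExpr (minimum count 10, minimum total 15), TMM scaling and the quasi-likelihood test, adjusted by Benjamini-Hochberg over 15580 tested genes, all 6 mice in 1 fit and no covariate. Genes passed at an adjusted p under 0.05, and DEGs also had an absolute log2 fold change over 1. The fit was tested on simulated data. With 3 mice in each group an exact permutation test cannot give a p under 0.1. Named genes were all 8 members, the DEGs of each list (the 6 of largest change at most) or, with fewer than 2, the 2 most abundant genes besides, and the 3 nearest profiles of each member that was a DEG. The members, lists and tests were chosen with earlier results of these data known. Some genes were matched by identifier, since symbols had turned into dates. Similar transcripts were sought with BLAST+ 2.17.0, and figures drawn with matplotlib 3.10.9. Alternatives were DESeq2 1.42.0, median-of-ratios and total-count scaling, no filter, limma 3.58.1 on log2(FPKM + 0.1) and log2(FPKM + 1), a replicate block, each mouse left out, and, chosen after the marker levels were seen, both libraries with seminal vesicle RNA left out.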

Additional observations from a re-analysis of the deposited data

How the results depend on the processing

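Over 14 alternatives, Gpx3 and Gpx1 passed in each, with log2 fold changes of 6.01 to 6.26 and -1.35 to -1.17, and Gpx2, Gpx4 and Gpx7 passed in none. The number of members called higher was 1 in place of 2 under limma on log2(FPKM + 0.1) and on log2(FPKM + 1), with the replicate block, without both libraries with seminal vesicle RNA, and 1 to 2 when single mice were left out, each time through the loss of Gpx8. Gpx2 changed sign without both libraries with seminal vesicle RNA (-0.0480), and the cause was not tested. Ftl1, which passed in no alternative, changed sign under limma with a pseudocount of 0.1 (-0.00442) and of 1 (-0.00429), without both libraries with seminal vesicle RNA (-0.0521) and in 2 of the fits without a mouse, which ranged from -0.0687 to 0.197. The number of list genes passing, 37, was 24 to 33 when single mice were left out and 20 without both libraries with seminal vesicle RNA, which leaves 2 mice in each group. By list, the number passing ranged over the alternatives from 5 to 9 for Nrf2 targets (8), 3 to 5 for recycling (5), 3 to 6 for breakdown (6), 0 to 3 for selenium supply (3), 3 to 10 for other selenoproteins (9), 5 to 9 for oxidative folding (8) and 0 to 2 for ferroptosis (0). The difference in the family's share of counts, 5.09 percentage points, was 4.73 to 5.29 when single mice were left out. With the 10 largest genes taken out of the total only, it was 5.87. Gpx3 is among these genes, so its counts stayed in the family but left the total. The value of 5.87 is therefore not a share and is no check of the difference. Over all tested genes 3061 passed, against 2174 with the replicate block, 1929 to 2741 with a mouse left out, 1354 without both libraries with seminal vesicle RNA and 3224 by DESeq2, and the number of DEGs, 1191, was 561 by limma on log2(FPKM + 1). The replicate numbers name different mice and did not pair them, with correlations of their deviations of -0.0516, 0.0275 and 0.0463, and under the block the adjusted p of Gpx8 was 0.0763. Total-count scaling moved the median of all genes by -0.04 on the log2 scale.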
